A study of Mus musculus with 6 samples.

Results

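The cells described here are kidney macrophages in which no transcript of Trem2, Fcrls or Gpnmb was counted. A barcode was chosen when it held at least 1000 unique molecular identifiers (UMIs, each standing for 1 captured transcript), at most 50% mitochondrial UMIs, at least 4 of the 6 macrophage genes C1qa, C1qb, C1qc, Adgre1, Ms4a7 and Csf1r, and 0 UMIs of Trem2, Fcrls and Gpnmb. It also had to hold 0 UMIs of the T cell gene Cd3e, the B cell gene Cd79a, the endothelial gene Pecam1 and the thick ascending limb gene Slc12a1, and at most 0.2% of its UMIs could come from the proximal tubule genes Lrp2, Slc34a1, Slc5a12 and Slc22a6. This rule found 739 cells among 76774 barcodes, of which 50910 passed the limits on UMIs and mitochondrial share. The same rule with at least 1 UMI of Trem2, Fcrls or Gpnmb found 787 further macrophages, which serve as the class for comparison.

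Kidneys of 3 sham and 3 DOCA-salt mice were measured, male C57BL/6 animals aged 8 to 10 weeks at purchase, with 1 library per mouse made with the 10x Genomics 3′ kit. DOCA-salt mice had lost the left kidney, and a week later received a 50 mg pellet of deoxycorticosterone acetate, an aldosterone-like steroid, with 1% NaCl to drink for 21 days. Sham mice had a sham operation, plain water and no pellet. The effects of nephrectomy, steroid and salt cannot be told apart in this design, and the labels name no day of preparation.

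Kidney macrophages take up debris and immune complexes, present antigen on MHC class II and release chemokines that draw in other leukocytes. Trem2 is a lipid-sensing receptor, Fcrls an Fc receptor-like protein of tissue macrophages and Gpnmb a lysosomal glycoprotein, and Trem2 and Gpnmb mark macrophages that handle lipid and cell debris in injured tissue. Extracellular ATP reaches these cells through P2X and P2Y receptors, and P2X7 can trigger the NLRP3 inflammasome, which activates caspase 1 and releases IL-1β.

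Sham mice gave 82, 88 and 86 such cells and DOCA-salt mice gave 123, 160 and 200. They were 0.922%, 1.22% and 0.990% of the barcodes that passed in sham mice and 1.41%, 1.76% and 2.40% in DOCA-salt mice, so the groups did not overlap. Of all macrophages by this rule, the cells without the 3 transcripts made up 75.2%, 87.1% and 90.5% in sham mice but 37.4%, 36.9% and 43.7% in DOCA-salt mice. These numbers follow from the values that chose the cells and are given without a test.

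**Figure D1:**
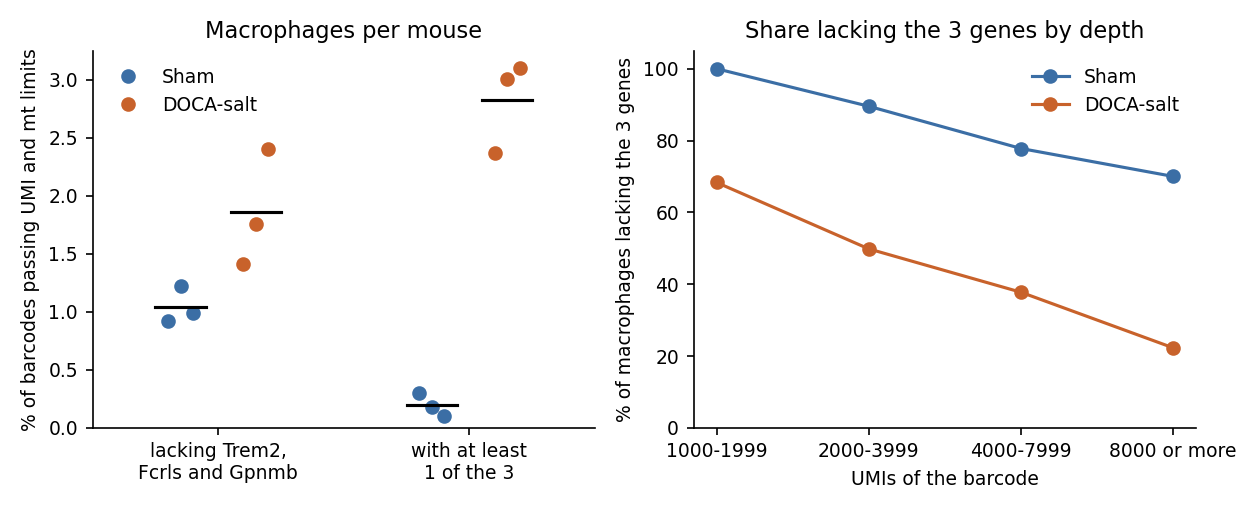
The left panel plots macrophages without and with Trem2, Fcrls or Gpnmb as a percentage of the barcodes passing the UMI and mitochondrial limits, with 1 point per mouse and the mean as a line. The right panel plots the percentage of macrophages without the 3 transcripts, pooled over the mice of a group, in 4 ranges of UMIs per barcode, and it falls from 100% to 70% in sham and from 68.3% to 22.3% in DOCA-salt from the shallowest to the deepest barcodes. The first and last sham points rest on 7 and 10 cells.

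An absent UMI is not proof of an absent transcript. The part of cells with uncounted transcripts of the 3 genes in the changes between groups below was not tested. In sham mice the pooled share without the 3 transcripts fell from 89.5% of 153 macrophages with 2000 to under 4000 UMIs to 77.8% of 135 with 4000 to under 8000, and in DOCA-salt mice from 49.8% of 301 to 37.8% of 649. The share was lower in DOCA-salt mice in each of the 4 ranges. The median depth was 3864 UMIs in sham and 4445 in DOCA-salt cells, against 4419 and 5607 in the macrophages with the transcripts. Just outside the rule, 280 of the 738 DOCA-salt macrophages with the transcripts (37.9%) held a single UMI of the 3 genes, and 34 of the 49 in sham mice did (69.4%). Trem2 was detected in 610 of those 738 cells, Fcrls in 349 and Gpnmb in 11.

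The macrophage genes that chose the cells were high in every mouse. C1qa, a chain of complement C1q, was at 3902, 4366 and 3575 CPM (UMIs of the gene in all chosen cells of a mouse, scaled to one common total) in sham mice and at 4532, 3896 and 3732 in DOCA-salt mice. Csf1r, the receptor for the macrophage growth factor CSF1, was at 407.2, 241.4 and 308.3 CPM in sham and at 361.2, 421.9 and 332.2 in DOCA-salt. Adgre1, which encodes F4/80, was at 340.3, 422.4 and 346.6 CPM in sham and at 613, 496 and 469 in DOCA-salt. All 6 genes were detected in 76 of 256 sham cells and in 246 of 483 DOCA-salt cells, while 75 and 69 cells held only 4 of them.

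Transcripts of other cell types were also counted in these cells. The 15 proximal tubule markers summed to 3132 to 7613 CPM in sham cells and to 3253 to 4636 in DOCA-salt cells, and the 12 fibroblast and mural markers to 24.6 to 80.9 CPM in sham and to 155 to 1338 in DOCA-salt. The 10 endothelial markers summed to at most 32.8 CPM in sham and to 38.3 to 92.5 in DOCA-salt, the 10 distal nephron markers to 326 to 805 and 292 to 434, and the 10 monocyte markers to 54.9 to 126 and 116 to 264. Of the 10 T and NK cell markers 7 were at 0 in all mice. The 8 neutrophil markers summed to 0 in sham and to 1.82 to 4.72 in DOCA-salt. These neutrophil sums rest on few UMIs, as 1 UMI stood for 2.74 CPM in Sham 2 and for 1.82 CPM in DOCA-salt 1. The 8 B cell markers (175 to 192 and 159 to 219 CPM) and the 10 dendritic cell markers (46.4 to 83.7 and 39.6 to 93.4) overlapped between the groups, as did the tubule, distal nephron, monocyte and T and NK cell sums, whereas the fibroblast and mural, endothelial and neutrophil sums were higher in every DOCA-salt mouse than in any sham mouse.

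A small number of the barcodes held several genes of epithelial or stromal cells. Barcodes with at least 3 of 10 epithelial genes (Epcam, Cdh1, Cdh16, Pax8, Krt7, Krt19, Cldn4, Cldn7, Cldn8 and Ehf) or at least 2 of 5 stromal genes (Col1a1, Col1a2, Col3a1, Dcn and Lum) numbered 32 of 739, with a median of 11253.5 UMIs. Whether each of them holds 1 cell or several was not tested. They were 8 of 256 cells in sham (3.12%) and 24 of 483 in DOCA-salt (4.97%). Their share of the summed UMIs was larger than their share of the cells in every mouse. With them the sums held 358555, 364599 and 366467 UMIs in sham and 548128, 931439 and 1059746 in DOCA-salt mice. Without them the sums held 345397, 348936 and 309019 UMIs in sham and 502471, 777841 and 864659 in DOCA-salt mice. These gene sets were chosen after the data had been seen, and many of the values below are also given without these barcodes. No barcode sequence was shared between the chosen cells of different libraries, and 13 of the chosen cells carried a barcode that some other library also held.

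To ask how DOCA-salt changed these cells, the UMIs of each mouse were summed (358555 to 366467 UMIs per sham mouse and 548128, 931439 and 1059746 per DOCA-salt mouse) and compared with edgeR's quasi-likelihood test over 5711 genes. At an adjusted p below 0.05, 22 genes were higher in DOCA-salt mice (0.385% of the genes tested) and 29 were lower (0.508%). At an unadjusted p below 0.05 there were 365 higher and 330 lower. The 2 groups did not overlap for 1024 genes (17.9%), among them all 51 genes called. The median log2 change of all genes was 0.00. Among the genes that fell were Mmp13, 4 chemokine genes, Tnf and Ifnb1, and among those that rose were Mrc1, Ccr2, Ms4a6c, Ctsd and Grn. In most of the gene lists below, the larger part of the tested members did not pass.

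The number of calls depended on single mice. With Sham 1, Sham 3, DOCA-salt 2 or DOCA-salt 3 left out there were 3, 1, 10 and 18 calls, against 75 without Sham 2 and 80 without DOCA-salt 1. No gene was called in the opposite direction in any of these fits. Of the 40 called genes that the naming rule chose, Mmp13 alone passed the threshold with each of the 6 mice left out, and all 40 kept their direction. In contrast, 6 of the 40 (Adgrg6, Ccr2, Ctsd, Fcgr1, Pla2g7 and Thbs1) passed in none of the 6 fits.

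Of 15 chemokine genes tested, Ccl3, Ccl4, Ccl5 and Cxcl10 were lower in DOCA-salt mice and the other 11 did not pass. Ccl4, a chemokine for T cells and monocytes, was at 17920, 25510 and 19580 CPM in the sham mice and at 10550, 7098 and 7176 in the DOCA-salt mice. All 3 DOCA-salt mice lay below all sham mice, and the log2 change was −1.43 ± 0.28 (standard error, n = 3 and 3, edgeR adjusted p = 0.0316). Ccl3, its neighbor on chromosome 11 and a chemokine of the same family, was at 6035, 5795 and 6664 CPM in sham and at 3541, 2816 and 2128 in DOCA-salt (−1.22 ± 0.25, adjusted p = 0.0375). Ccl5, at 387.7, 359.3 and 548.5 CPM in sham and at 102.2, 221.2 and 171.7 in DOCA-salt, fell by 1.48 ± 0.27 on the log2 scale (adjusted p = 0.0227). The 3 chemokine genes are clustered within the same part of chromosome 11 (GRCm39), Ccl5 at chr11:83416602-83425942, Ccl3 at chr11:83538670-83540191 and Ccl4 at chr11:83553383-83555509.

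Cxcl10, an interferon-induced chemokine for CXCR3-bearing T cells, was at 769.8, 1204 and 856.8 CPM in sham mice and at 523.6, 468.1 and 354.8 in DOCA-salt mice (−1.17 ± 0.22, adjusted p = 0.0316). No chemokine was called higher, 7 of the 15 had a positive change and their median log2 change was −0.04. Ccl8 had a change of 1.53 and Ccl7 of 0.81 without passing, and Ccl8 was called higher once the barcodes with epithelial or stromal genes were left out. Ccl2, the main monocyte attractant, was at 273.3, 422.4 and 199.2 CPM in sham and at 454.3, 342.5 and 544.5 in DOCA-salt (0.49 ± 0.25, adjusted p = 0.460). Summed over the 22 chemokines of the list, the level was 30560 to 39470 CPM in sham and 14550 to 20620 in DOCA-salt. The UMIs of Ccl4 were spread over many cells, and how its fall was shared among them was not tested. Ccl4 was detected in 96.1% of sham and 90.1% of DOCA-salt cells, and the top 5 cells held 7.2% and 5.0% of its UMIs. Of its DOCA-salt UMIs, 1.2% came from the 24 barcodes with epithelial or stromal genes.

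**Figure D2:**
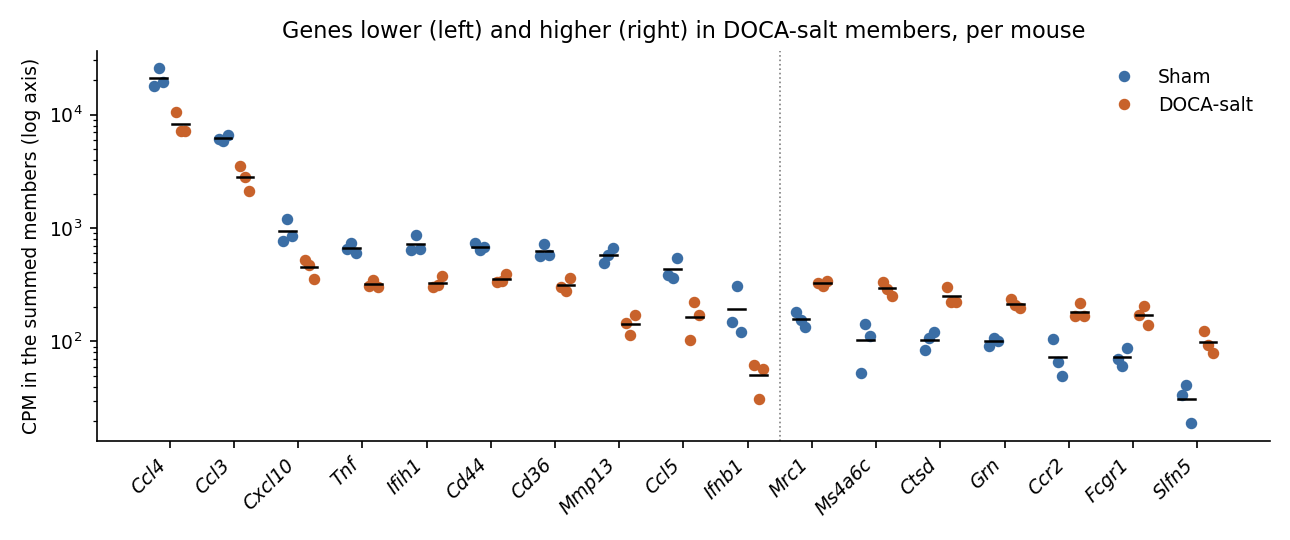
CPM in the summed cells of each mouse (log axis) for 10 genes lower and 7 genes higher in DOCA-salt mice, with 1 point per mouse and the mean as a line. The 17 genes were taken from the 51 called, none of which overlapped between the groups, so the 3 DOCA-salt and 3 sham points of each do not overlap.

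Among cytokines and growth factors, Tnf and Ifnb1 fell and Hbegf rose, and the other 13 of the 16 tested did not pass. Barcodes with epithelial or stromal genes held 92.7% of the DOCA-salt UMIs of Hbegf, which was too low to test without them. Tnf, which encodes the inflammatory cytokine TNF, was at 655.4, 737.8 and 603.1 CPM in sham mice and at 308.3, 345.7 and 302.0 in DOCA-salt mice (−1.16 ± 0.17, adjusted p = 0.0121). It was detected in 71.5% of sham and 53.4% of DOCA-salt cells. Ifnb1, which encodes interferon-β, was at 147.8, 309.9 and 120.1 CPM in sham and at 62.0, 31.1 and 57.6 in DOCA-salt (−2.05 ± 0.34, adjusted p = 0.0175). Both genes separated the mice completely. Il1b, which encodes IL-1β, was at 1623, 1846 and 1618 CPM in sham and at 1281, 1064 and 737.9 in DOCA-salt. Its groups did not overlap, but it was not called (−0.81 ± 0.23, edgeR adjusted p = 0.127).

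Mmp13, the collagenase that cleaves fibrillar collagen, gave the smallest p of the comparison. Its level was 490.9, 573.2 and 665.8 CPM in the sham mice and 144.1, 113.8 and 170.8 in the DOCA-salt mice. The log2 change was −2.12 ± 0.21 (adjusted p = 9.15e-04) and lay between −2.27 and −1.98 with each mouse left out. The transcript was detected in 61.7% of sham and 24% of DOCA-salt cells. Mmp13 lies at chr9:7272514-7283331 on the plus strand.

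Several genes that sense or answer viral RNA and stress were also lower. Ifih1, which encodes the RNA sensor MDA5, was at 644.3, 874.9 and 657.6 CPM in sham and at 301.0, 315.6 and 374.6 in DOCA-salt (−1.23 ± 0.19, adjusted p = 0.0121). Oasl1, a restrainer of IRF7 translation, was at 345.8, 301.7 and 335.6 CPM in sham and at 133.2, 146.0 and 194.4 in DOCA-salt (−1.15 ± 0.19, adjusted p = 0.0175). With Cxcl10, these were the 3 interferon-stimulated genes called among 31 tested, 0 were higher, and the median of the 31 was −0.10. Without the barcodes with epithelial or stromal genes, 5 of the 31 were lower (Ifit2 and Oasl2 in addition) and 2 were higher (Irf7 and Bst2), with a median of 0.01. Ppp1r15a, the stress-induced phosphatase subunit GADD34, was at 794.9, 803.6 and 646.7 CPM in sham and at 421.4, 321.0 and 384.1 in DOCA-salt (−1.09 ± 0.18, adjusted p = 0.0175). Of 29 immediate early and dissociation-response genes it alone passed, while without the barcodes with epithelial or stromal genes Ppp1r15a, Dnajb1 and Hsp90aa1 were lower and Socs3 was higher. That list, which also responds to tissue digestion, had a median of −0.25 and a summed level of 29350 to 46220 CPM in sham and 26750 to 35960 in DOCA-salt, and its part in the falls was not tested.

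Cd36, a scavenger receptor for oxidized lipoprotein and fatty acids, was at 566.2, 718.6 and 584.0 CPM in sham and at 302.8, 280.2 and 366.1 in DOCA-salt (−1.07 ± 0.18, adjusted p = 0.0175). Cd44, the hyaluronan receptor, was at 736.3, 639.1 and 684.9 CPM in sham and at 337.5, 339.3 and 396.3 in DOCA-salt (−1.04 ± 0.17, adjusted p = 0.0175). Adgrl3, an adhesion receptor of the latrophilin family, showed the largest fall, from 125.5, 139.9 and 117.3 CPM to 23.7, 3.22 and 13.2 (−3.47 ± 0.41, adjusted p = 0.00292). Dnase1l3, a nuclease that macrophages secrete to degrade chromatin, went from 66.9, 54.9 and 51.9 CPM in sham to 5.47, 15.0 and 11.3 (−2.44 ± 0.34, adjusted p = 0.00932). Each of these 4 genes separated the groups without overlap. Adgrg6, a further adhesion receptor, the deubiquitinase gene Otud1 and Tbpl1, a relative of the TATA-binding protein, also fell, with log2 changes of −1.43, −1.64 and −1.47.

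Inmt, Cyp4b1 and Ass1 were lower too, and their mean levels in tubule cells were also lower in DOCA-salt mice. Inmt, a methyltransferase, was at 122.7, 41.1 and 90.1 CPM in sham macrophages and at 9.12, 19.3 and 10.4 in DOCA-salt (−2.76 ± 0.42, adjusted p = 0.0121). In the proximal tubule cells of the same libraries its mean level was 602.0 CPM in sham and 149.5 in DOCA-salt. Cyp4b1, a cytochrome P450 (−1.92 ± 0.33, adjusted p = 0.0175), went from 781.5 to 408.2 CPM in tubule cells, and Ass1, the urea cycle enzyme (−1.38 ± 0.29, adjusted p = 0.0433), from 1374 to 807.5. Levels in sham macrophages were 0.14, 0.12 and 0.16 of those in tubule cells. By contrast, tubule cells of sham mice held 9.04 CPM of Ccl4, 0.71 of Tnf, 0.28 of Mmp13, 1.58 of Adgrl3 and 0.24 of Mrc1. Ass1 was the 1 proximal tubule marker called among 14 tested, whose median log2 change was −0.94. The part of free tubule RNA in these 3 falls was not tested.

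The sequences just upstream of 2 of the falling genes are shown because Cxcl10 and Mmp13 are well-studied targets of NF-κB and AP-1, the factors that drive inflammatory transcription. Each run is the 250 bases before the start of the canonical GENCODE transcript on GRCm39, 5′ to 3′ on the gene's strand, with matches to GGGANNNNCC (NF-κB-like) and TGANTCA (AP-1-like) on either strand in capitals. The Mmp13 run is chr9:7272264-7272513 (plus strand), where the capitals mark a TGANTCA match ending 28 bases before the start. The Cxcl10 run is chr5:92496749-92496998 (minus strand), where the capitals mark 2 GGGANNNNCC matches and 1 TGANTCA match, the nearest of each ending 93 and 67 bases before the start.
Mmp13: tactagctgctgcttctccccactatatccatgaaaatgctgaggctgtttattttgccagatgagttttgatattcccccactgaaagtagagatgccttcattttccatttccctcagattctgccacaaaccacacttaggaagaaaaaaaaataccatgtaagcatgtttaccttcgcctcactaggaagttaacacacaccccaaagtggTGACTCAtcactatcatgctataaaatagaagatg
Cxcl10: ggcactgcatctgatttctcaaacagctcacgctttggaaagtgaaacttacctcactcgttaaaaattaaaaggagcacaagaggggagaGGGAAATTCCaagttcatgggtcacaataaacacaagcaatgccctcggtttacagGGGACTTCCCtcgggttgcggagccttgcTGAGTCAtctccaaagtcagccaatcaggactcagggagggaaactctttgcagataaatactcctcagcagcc
The promoter of Ccl5 held 1 match to GGGANNNNCC, and those of Ccl3, Ccl4 and Tnf held neither motif in this window. GGGANNNNCC was present in 18.2% of 21431 promoters and in 20.5% of the 5599 of tested genes, against 7 of 28 promoters of genes that fell (25%) and 7 of 22 of genes that rose (31.8%). TGANTCA was present in 6.17% of all promoters, 4.82% of those of tested genes, 3 of 28 for genes that fell (10.7%) and 3 of 22 for genes that rose (13.6%). For Ifnb1, 1 of the genes that fell, the annotated transcript begins at its start codon, so this window need not lie just before the start of transcription. A match describes the letters and not binding.

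Some of the genes that rose were counted in many cells, and others had most of their UMIs in a few barcodes. Mrc1, the mannose receptor CD206, was at 181.3, 153.6 and 133.7 CPM in the sham mice and at 326.6, 308.1 and 338.8 in the DOCA-salt mice. The groups did not overlap, and the log2 change was 0.96 ± 0.18 (adjusted p = 0.0316). Mrc1 was detected in 35.6% of sham and 61.7% of DOCA-salt cells, and 5.6% of its DOCA-salt UMIs came from barcodes with epithelial or stromal genes.

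Ccr2, the receptor that brings monocytes out of the blood toward CCL2, was at 106.0, 65.8 and 49.1 CPM in sham and at 166.0, 219.0 and 166.1 in DOCA-salt (1.23 ± 0.26, adjusted p = 0.0433). Ms4a6c, a membrane protein of monocytes, was at 53.0, 142.6 and 111.9 CPM in sham and at 337.5, 292.0 and 253.8 in DOCA-salt (1.42 ± 0.28, adjusted p = 0.0371). Both were higher in every DOCA-salt mouse than in any sham mouse. Of 16 monocyte and recruited macrophage genes tested, 4 rose (Fn1, Thbs1, Ccr2 and Ms4a6c), Cd44 fell and the median log2 change was 0.95. Without the barcodes with epithelial or stromal genes, 13 could be tested, of which Ccr2, Ms4a6c, Lyz2 and Ms4a4c rose and Cd44 fell, and the median was 0.10. Of 14 resident macrophage genes Mrc1 rose and none fell (median 0.45), and of 3 monocyte markers tested none passed, while Ms4a4c passed as 1 of 2 without those barcodes.

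Slfn5, an interferon-induced regulator, was at 33.5, 41.1 and 19.1 CPM in sham and at 124.1, 93.4 and 78.3 in DOCA-salt (1.54 ± 0.32, adjusted p = 0.0415). Fcgr1, the high-affinity IgG receptor, was at 69.7, 60.3 and 87.3 CPM in sham and at 169.7, 205.1 and 139.7 in DOCA-salt (1.14 ± 0.24, adjusted p = 0.0453). Neither gene overlapped between the groups. Of 33 scavenger, phagocytic and lectin receptors, Mrc1 and Fcgr1 rose, Cd36 fell and the median log2 change was 0.24. Without the barcodes with epithelial or stromal genes, 5 of 33 rose, with Clec4a2, Clec12a and Itgam added.

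Of 29 lysosomal genes tested, Ctsd and Grn were higher and the other 27 did not pass. Ctsd, the aspartic protease cathepsin D, was at 83.7, 107.0 and 120.1 CPM in sham and at 302.8, 222.2 and 224.6 in DOCA-salt (1.16 ± 0.23, adjusted p = 0.0366), and Grn, the lysosomal protein progranulin, was at 92.0, 107.0 and 101.0 in sham and at 239.0, 211.5 and 197.2 in DOCA-salt (1.01 ± 0.20, adjusted p = 0.0366). Barcodes with epithelial or stromal genes held 31.9% of the DOCA-salt UMIs of Ctsd and 11.6% of those of Grn, and without them the changes were 1.18 (adjusted p = 0.00380) and 0.99 (adjusted p = 0.0106). Of the 29 genes, 24 had a positive change and the median was 0.23. For 13 of the 29 the groups did not overlap, and 12 of these were higher in DOCA-salt, against 17.9% of all genes without overlap in either direction. Pla2g7, which hydrolyses oxidized phospholipids, rose from 50.2, 35.7 and 38.2 CPM to 100.3, 115.9 and 87.8 (1.19 ± 0.26, adjusted p = 0.0475).

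Most of the DOCA-salt UMIs of Mgp, Spp1 and Fn1, which had the largest rises, lay in a few barcodes. Mgp, the matrix Gla protein of vascular and stromal cells, was at 8.37, 0 and 5.46 CPM in the sham mice and at 98.5, 919.0 and 911.5 in the DOCA-salt mice (6.97 ± 0.93, adjusted p = 0.00732). Of its 1876 UMIs in DOCA-salt cells, 638 were in a single barcode of DOCA-salt 2, and 87.7% were in the 24 barcodes with epithelial or stromal genes. In DOCA-salt 1, however, none of the 54 UMIs came from such barcodes, and they were spread over 37 cells. Without these barcodes the log2 change was 4.57 (adjusted p = 1.01e-05). Proximal tubule cells held a mean of 13.8 CPM in sham and 374.2 in DOCA-salt, so the level outside the macrophages moved in the same direction. Whether these UMIs came from the tubule cells themselves or from free RNA was not tested.

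Spp1, the secreted matrix protein osteopontin, was at 178.5, 189.2 and 212.8 CPM in sham and at 532.7, 794.5 and 5838 in DOCA-salt (3.49 ± 0.70, adjusted p = 0.0371). A single barcode of DOCA-salt 3 held 2781 of the 7219 DOCA-salt UMIs, and without that mouse the change was 1.68 (adjusted p = 0.0138). Without the barcodes with epithelial or stromal genes, which held 82.1% of the UMIs, it was 1.88 (adjusted p = 0.00377). Spp1 was detected in 41.4% of sham and 85.5% of DOCA-salt cells, and its mean in tubule cells was 817.9 CPM in sham and 4573 in DOCA-salt.

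Fn1, which encodes fibronectin, was counted 3 times in all sham cells and 132 times in DOCA-salt cells, a ratio per UMI of 18.9 (95% exact interval 6.32 to 92.7, for counting error only). It was found in 23 of the 483 DOCA-salt cells, and 5 of them held 76.5% of its UMIs. The adjusted p was 0.0182. In tubule cells the mean of Fn1 was 1.05 CPM in sham and 21.7 in DOCA-salt. Spon1, an extracellular matrix protein, had 13.9, 0 and 0 CPM in sham and 47.4, 48.3 and 41.5 in DOCA-salt (3.16 ± 0.63, adjusted p = 0.0371). It was found in 50 DOCA-salt cells, and 31.3% of its UMIs there were in the 24 barcodes. All 5 of its sham UMIs were in a single barcode of Sham 1 that also held epithelial or stromal genes. Without such barcodes no sham UMI was left and the fitted change was 7.27 (adjusted p = 0.00145), a size that depends on the prior count and is no bound. With each mouse left out the change lay between 2.58 and 7.88, the highest without Sham 1, which was the only one of these fits to call it. Fabp4, a fatty acid carrier of macrophages, fat cells and capillaries, was at 5.58, 2.74 and 10.9 CPM in sham and at 49.3, 34.4 and 77.4 in DOCA-salt (2.93 ± 0.52, adjusted p = 0.0209). It was found in 74 DOCA-salt cells, with 13.5% of its UMIs in the 24 barcodes and 46.8% in 5 cells. In tubule cells the mean of Fabp4 was 35.1 CPM in sham and 169 in DOCA-salt, and that of Spon1 was 6.00 and 11.5. The part of free RNA in these rises was not tested.

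Hbegf, an EGF receptor ligand made by injured epithelium and by macrophages, was at 11.2, 19.2 and 10.9 CPM in sham and at 73.0, 45.1 and 168.0 in DOCA-salt (2.69 ± 0.53, adjusted p = 0.0366). The keratin genes Krt8 and Krt18, markers of simple epithelium, rose by 2.56 ± 0.45 (adjusted p = 0.0196) and 1.90 ± 0.39 (adjusted p = 0.0382). Barcodes with epithelial or stromal genes held 92.7% of the DOCA-salt UMIs of Hbegf, 88.1% of those of Krt8 and 93.7% of those of Krt18. The share was 88.5% for Mal, a tubular membrane protein, 83.2% for the transcription factor gene Nfib and 78.4% for Thbs1, which encodes thrombospondin 1. With these barcodes left out, 14 of the 22 risen genes could still be tested and all 14 were called, while Fn1, Fabp4, Hbegf, Krt8, Thbs1, Krt18, Mal and Nfib were too low to be tested. All 29 genes that fell were still called, and the totals became 47 higher and 62 lower of 5078 genes.

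**Figure D3:**
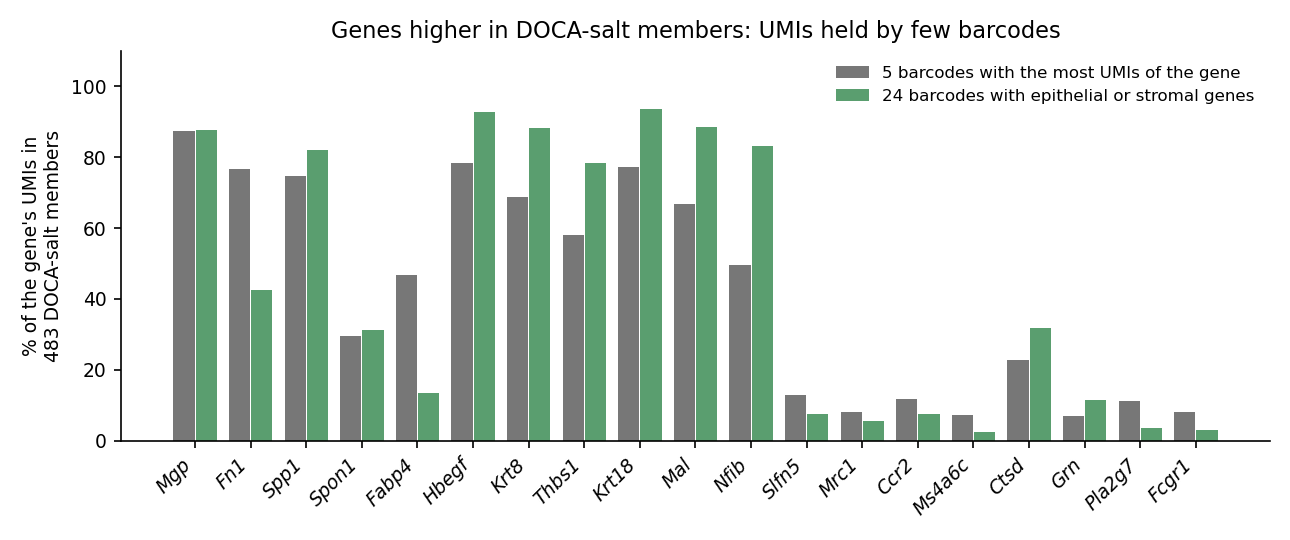
Bars show, for 19 genes higher in DOCA-salt mice, the percentage of the gene's UMIs in the 483 DOCA-salt cells that lay in the 5 barcodes with the most UMIs of that gene (grey) and in the 24 barcodes with epithelial or stromal genes (green). The second share is 87.7% for Mgp and 93.7% for Krt18 but 5.6% for Mrc1 and 2.3% for Ms4a6c.

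Receptors for extracellular nucleotides were few and did not pass. Of 20 purinergic and adenosine receptors, 5 were high enough to test, 0 were called and their median log2 change was 0.52, and P2rx2, P2rx3 and P2ry4 were at 0 in all mice. P2rx7, the ATP receptor upstream of the NLRP3 inflammasome, was at 36.3, 11 and 30.0 CPM in sham and at 36.5, 40.8 and 60.4 in DOCA-salt, with the lowest DOCA-salt mouse level with the highest sham mouse (0.75 ± 0.38, adjusted p = 0.454). These levels rest on 28 UMIs in sham and 122 in DOCA-salt cells. P2rx4 was at 64.2, 54.9 and 51.9 CPM in sham and at 83.9, 87.0 and 90.6 in DOCA-salt, with no overlap but a change of 0.52 ± 0.22 (adjusted p = 0.367). P2ry6, the UDP receptor, overlapped between the groups (0.34 ± 0.23, adjusted p = 0.612).

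Of 15 inflammasome and pyroptosis genes tested, 0 were called and the median was −0.07. Nlrp3 was at 175.7, 205.7 and 193.7 CPM in sham and at 149.6, 147.1 and 200 in DOCA-salt (−0.31 ± 0.19, adjusted p = 0.588). Casp1 (−0.13 ± 0.30, adjusted p = 0.912) and Gsdmd, which encodes the pore protein gasdermin D (−0.51 ± 0.42, adjusted p = 0.691), overlapped between the groups. Their direction was not stable. Casp1 was at 0.01 when the summed UMIs of the mice were thinned to equal totals or DOCA-salt 3 was left out, and Gsdmd was at 0.13 without Sham 3. Panx1, the channel that releases ATP, was counted 3 times in the sham and 15 times in the DOCA-salt cells, and Il6 8 and 30 times, too few to test.

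The share of cells with a UMI, after every cell was thinned to 1000 UMIs, was compared for 14 genes. For P2rx7 it was 3.72%, 0.842% and 3.58% in sham mice and 3.4%, 4.02% and 6.97% in DOCA-salt mice (exact two-sided permutation test over 3 and 3 mice, p = 0.3, adjusted p = 0.467 over the 14). Proximal tubule cells, with medians of 9234 to 12588 UMIs, gave 0.0251% to 0.156%, below the macrophage share of every mouse. The part of free RNA in the macrophage shares was not tested. Without thinning the P2rx7 shares were 12.2%, 4.55% and 12.8% in sham and 13.8%, 18.8% and 24.5% in DOCA-salt. For P2rx4 the thinned share was 6.54%, 5.90% and 4.25% in sham and 9.61%, 9.25% and 9.84% in DOCA-salt, with tubule cells at 2.81% to 3.01% (exact p = 0.1, adjusted p = 0.233).

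With 3 mice per group, 0.1 is the smallest p this test can give. It was reached by P2rx4, Il1b, Mrc1, Ccr2, Cd86 and H2-Ab1, each with an adjusted p of 0.233. Mrc1 was found in 15.3%, 13.1% and 11% of thinned sham cells and in 26.5%, 25.7% and 28.7% of DOCA-salt cells. Ccr2 went from 8.21%, 5.46% and 4.04% to 13.2%, 17.1% and 14.6%, and Il1b from 54.6%, 60.8% and 60.4% to 42.6%, 40.8% and 33.4%. None of these shares overlapped between the groups. Nlrp3 (a difference of −1.40 percentage points, exact p = 0.2), Casp1 (−0.299, exact p = 0.7) and Gsdmd (−1.20, exact p = 0.7) overlapped. Lyve1, a gene of perivascular resident macrophages, was found in no cell of any mouse, and Cd163 and Il1rn in under 1% of thinned cells.

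**Figure D4:**
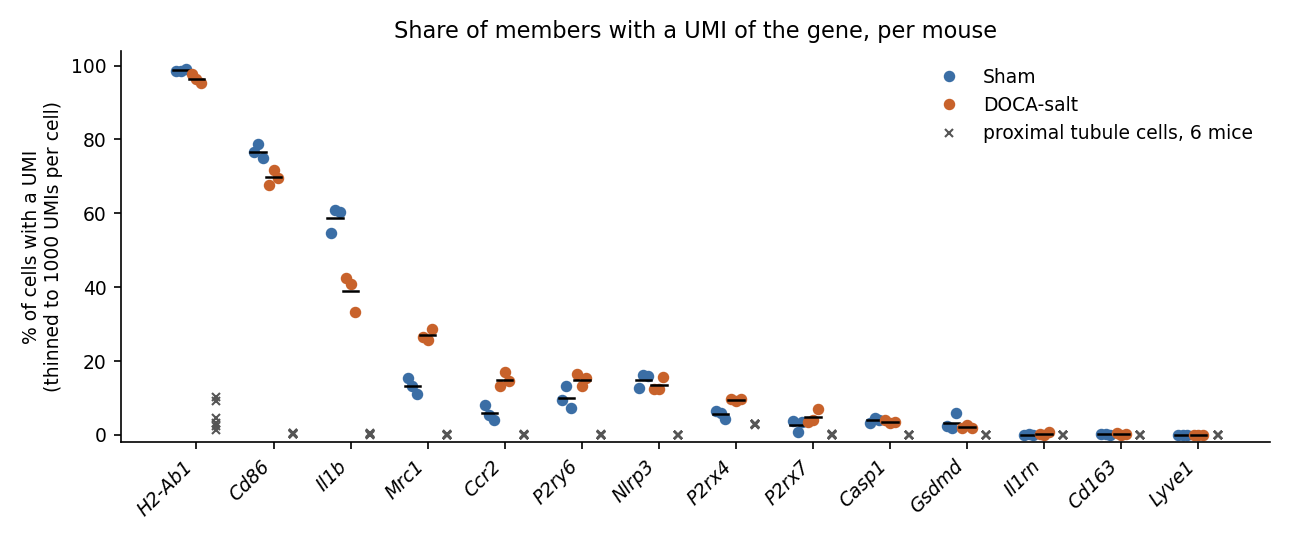
Percentage of cells with at least 1 UMI of the gene after thinning each cell to 1000 UMIs, with 1 point per mouse, the mean as a line, and crosses for the proximal tubule cells of the same 6 mice. Il1b lies between 54.6% and 60.8% in sham and between 33.4% and 42.6% in DOCA-salt, and P2rx7 lies under 7% in every mouse.

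H2-Ab1, a chain of MHC class II, was counted in 98.1% to 100% of the cells of each mouse, without thinning. Tubule cells gave 9.29% to 19.5% in sham and 31.4% to 55.7% in DOCA-salt mice. The 11 MHC class II genes summed to 50010 to 58990 CPM in sham and to 40790 to 53430 in DOCA-salt, 0 of 9 tested genes passed and their median was −0.19. The co-stimulatory gene Cd86 was at 2502, 2715 and 1937 CPM in sham and at 1622, 1854 and 1819 in DOCA-salt (−0.53 ± 0.19, adjusted p = 0.248). No gene passed among 15 MHC class I presentation genes (median 0.06), 21 NF-κB feedback and target genes (−0.30), 20 heme, iron and antioxidant genes (−0.15), 17 glycolysis and hypoxia genes (0.03), 13 steroid receptors and targets (−0.08), 25 macrophage transcription factors (0.12), 10 activation genes (0.11), 8 NADPH oxidase subunits (−0.10), 6 complement genes (0.10) or 5 cell cycle genes (−0.05). Of 21 lipid handling genes, Spp1, Fabp4 and Pla2g7 rose and Cd36 fell (median 0.18), and of 12 matrix genes Fn1, Spp1 and Thbs1 rose and Mmp13 fell (median 0.54). Without the barcodes with epithelial or stromal genes the lipid genes that rose were Apoe, Spp1, Pltp and Pla2g7, and those that fell were Lpl and Cd36, while of 10 matrix genes Spp1 and Anxa1 rose, Mmp12 and Mmp13 fell and the median turned to −0.17. The medians of the transcription factors (−0.02) and complement genes (−0.01) also changed sign there, with no gene called.

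To show where these cells differ from the class most like them, the macrophages without and with Trem2, Fcrls or Gpnmb were compared within the 3 DOCA-salt mice, with the mouse as a block. The classes are defined by those 3 genes in the same cells, and their depth differs, so differences are a description of the split. Of 8742 genes tested, 241 were higher in the cells without the 3 transcripts (2.76%) and 165 were lower (1.89%). At an unadjusted p below 0.05 there were 691 higher and 666 lower. Restricted to cells with 3000 to 10000 UMIs, 28 were higher and 70 lower. With the barcodes with epithelial or stromal genes left out, 116 of 7957 genes were higher and 176 lower, which is the background for the list counts of that fit below. Of 53 called genes that were refitted without each of the 3 mice, 28 were called every time and all 53 kept their direction. The calls lost with at least 1 mouse left out included Apoe, Ctsz, Ftl1, Mertk, Mrc1, Ccl2, Ccl6, Ccl7, Nlrp3, Casp4, Ninj1, Lyz2, Lgals3, Fn1, S100a11, Mmp13, Clec9a, Pparg, Plac8, Tmem117, Calb1, Aqp2 and Nr3c2. Whether DOCA-salt acted differently on the 2 classes was not tested, because Sham 3 held only 9 macrophages with the transcripts.

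Of 24 lipid handling genes, 9 were lower in the cells without the 3 transcripts, 2 were higher and 13 did not pass (median −0.29). With the epithelial or stromal barcodes left out, 11 of 23 were lower and 5 higher (Fabp4, Cyp27a1, Pparg, Ch25h and Acsl1). Fabp5, a fatty acid carrier, was at 150.5, 319.1 and 468.2 CPM in the macrophages with the transcripts and at 27.4, 14 and 11.3 in those without (−4.39 ± 0.31, adjusted p = 5.58e-06). That difference was not called between 3000 and 10000 UMIs (−0.56, adjusted p = 0.701). Apoe, the apolipoprotein of macrophages, was at 24550, 26330 and 19410 CPM with and at 15610, 13970 and 11930 without (−0.79 ± 0.08, adjusted p = 1.94e-04), and Abca1, the cholesterol exporter, differed by −1.22 ± 0.11.

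Ctsd was at 824.1, 937.1 and 806.4 CPM with the transcripts and at 302.8, 222.2 and 224.6 without (−1.83 ± 0.13, adjusted p = 5.48e-06), and it was −1.44 in the range of 3000 to 10000 UMIs. Of 32 lysosomal genes, 12 were lower and 0 higher (median −0.39), among them Ctsb (−0.80), Lgmn (−0.56) and Ctsz (−0.60). Ctsz was not called between 3000 and 10000 UMIs (−0.23, adjusted p = 0.387). Of 30 lysosomal genes tested without the epithelial or stromal barcodes, 11 were lower and 0 higher. The list summed to 17100 to 17320 CPM with the transcripts and to 12420 to 13920 without. Among the cells without the transcripts, Ctsd was thus higher in DOCA-salt than in sham mice, and still below the level of the cells with them. The part of cells whose transcripts went uncounted in the difference between groups was not tested.

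Of 37 scavenger, phagocytic and lectin receptors 13 were lower in the cells without the transcripts and 1 was higher (median −0.33), including Stab1 (−1.07 ± 0.13), Mertk, which binds apoptotic cells (−0.83 ± 0.15), and Clec4n, the lectin dectin-2 (−1.91 ± 0.23). Mrc1 was at 446.5, 487.1 and 436.0 CPM with and at 326.6, 308.1 and 338.8 without (−0.52 ± 0.10, adjusted p = 0.0101). Of 15 resident macrophage genes 6 were lower and 0 higher, among them the growth factor gene Igf1 (−1.34 ± 0.19) and F13a1, a clotting factor subunit (−2.04 ± 0.27). Of 23 heme, iron and antioxidant genes 7 were lower and 0 higher, among them Blvrb (−0.94), Ftl1 (−0.68) and the cystine transporter gene Slc7a11 (−2.23). When the epithelial or stromal barcodes were left out, 10 of 36 receptors were lower and 2 higher, 7 of 15 resident macrophage genes were lower and 1 higher, and 9 of 22 heme, iron and antioxidant genes were lower and 0 higher.

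Of 17 chemokine genes, 7 were lower in the cells without the transcripts and 0 higher. Ccl8, a chemokine of tissue macrophages, was at 150.5, 457.1 and 325.4 CPM with and at 38.3, 23.6 and 42.5 without (−3.24 ± 0.27, adjusted p = 1.89e-05), and Pf4 (−1.15), Ccl6 (−0.97, but −0.19 and not called between 3000 and 10000 UMIs), Ccl7 (−0.79) and Ccl2 (−0.51) were lower as well. With the barcodes with epithelial or stromal genes left out, 9 were lower, and Ccl3, Ccl4 and Ccl5 were higher in the cells without the transcripts. Nlrp3 was at 222.8, 260.8 and 283.2 CPM with and at 149.6, 147.1 and 200 without (−0.67 ± 0.11, adjusted p = 0.00402), but it was not called between 3000 and 10000 UMIs (−0.40, adjusted p = 0.141). Casp4 (−0.58) and Ninj1, which ruptures the membrane of dying cells (−0.64), were also lower. Ninj1 was not called between 3000 and 10000 UMIs (−0.52, adjusted p = 0.184), nor Casp4 without DOCA-salt 3 (−0.41, adjusted p = 0.329). Nlrp3, Casp4 and Ninj1 were the 3 inflammasome genes called among 18, and without the barcodes with epithelial or stromal genes Txnip and Il1b were called higher in addition. P2rx7 (−0.46 ± 0.22, adjusted p = 0.346), P2rx4 (−0.42 ± 0.14, adjusted p = 0.140) and P2ry6 (−0.09 ± 0.12, adjusted p = 0.810) were not.

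**Figure D5:**
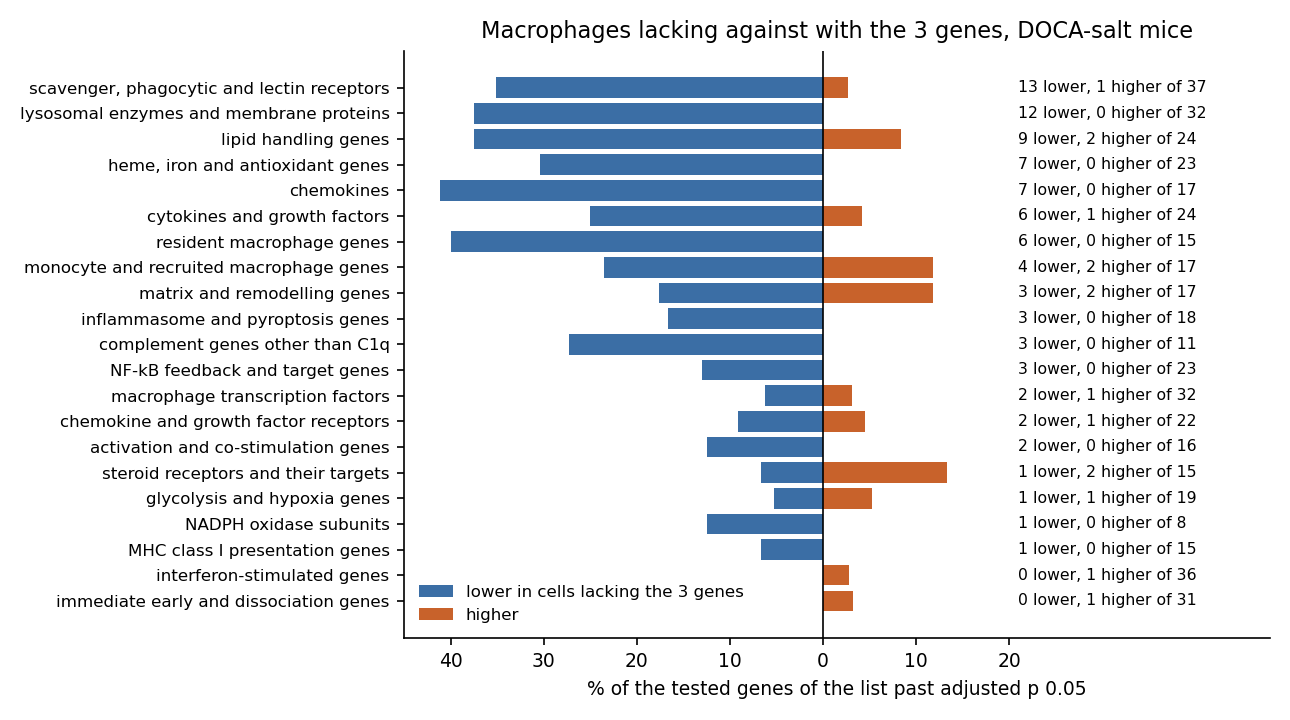
For each gene list with a called gene, bars give the percentage of its tested genes that were lower (blue, left) or higher (orange, right) in DOCA-salt macrophages without Trem2, Fcrls and Gpnmb than in those with at least 1 of them, at an adjusted p below 0.05. Lower genes were 7 of 17 chemokines, 6 of 15 resident macrophage genes, 12 of 32 lysosomal genes, 9 of 24 lipid genes and 13 of 37 scavenger receptors.

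Among the 241 genes higher in the cells without the transcripts were genes of tubule and duct epithelium. The 10 largest differences that met the naming rule were Grip1, Frmpd4, Rbfox1, Hsd11b2, Mal, Phactr1, Plet1, Tmem117, Krt18 and Mecom, with log2 differences of 2.67 to 3.46. Hsd11b2, the enzyme that protects the mineralocorticoid receptor of the collecting duct, was at 7.57, 3.04 and 11.7 CPM with and at 98.5, 82.7 and 47.2 without (3.28 ± 0.36, adjusted p = 2.21e-04). The water channel gene Aqp2 (1.81), the distal tubule gene Calb1 (1.66) and Nr3c2, the mineralocorticoid receptor gene (1.26), were higher as well. Barcodes with epithelial or stromal genes made up 24 of 483 cells without the transcripts and 22 of 738 with them (2.98%), and they held 95.1% of the UMIs of Grip1 in the cells without the transcripts, 71.5% of those of Aqp2, 78.7% of those of Calb1 and 65.9% of those of Nr3c2. With these barcodes left out, 130 of the 241 higher genes could be tested and 23 were still called, against 124 of the 165 lower genes. None of Aqp2 (0.57, adjusted p = 0.475), Nr3c2 (0.14, adjusted p = 0.908), Phactr1 (0.46), Plet1 (0.06) and Mecom (0.42) was called then, and Calb1 was at −0.14 and Hbegf, which had been higher by 2.11, at −0.27. Aqp2 was also not called without DOCA-salt 3 (0.57, adjusted p = 0.676).

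A few genes of immune cells stayed higher without those barcodes. Mmp13 was at 52.1, 67.0 and 117.0 CPM in the macrophages with the transcripts and at 144.1, 113.8 and 170.8 in those without (0.82 ± 0.17, adjusted p = 0.0133). The ranges overlapped between mice, but Mmp13 was higher without the transcripts within each of the 3 mice, and without the epithelial or stromal barcodes the difference was 1.04. Clec9a, a receptor for dead cells on cross-presenting dendritic cells, was at 0.841, 5.58 and 5.27 CPM with and at 10.9, 19.3 and 17.9 without (1.92 ± 0.41, adjusted p = 0.0166), and 0% of its UMIs came from epithelial or stromal barcodes. The 10 dendritic cell markers summed to 18.5 to 25.8 CPM with and to 39.6 to 93.4 without. Pparg, the lipid-sensing nuclear receptor, was higher by 0.64 ± 0.13 (adjusted p = 0.0138).

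Of 17 monocyte and recruited macrophage genes, 4 were lower in the cells without the transcripts and 2 higher (median 0.01). Lyz2, which encodes lysozyme (−0.91 ± 0.13, adjusted p = 0.00149), Vim, the intermediate filament vimentin (−0.72 ± 0.10, adjusted p = 0.00105), Lgals3, the lectin galectin-3 (−0.67 ± 0.11, adjusted p = 0.00301), and Fn1 (−1.12 ± 0.28, adjusted p = 0.0416) were lower. S100a11, a calcium-binding protein, was higher by 0.69 ± 0.11 (adjusted p = 0.00317). Plac8 was higher by 1.59 ± 0.36 (adjusted p = 0.0218). With DOCA-salt 2 left out neither Plac8 (0.61, adjusted p = 0.670) nor Lyz2 (−0.74, adjusted p = 0.0704) was called. The differences of Vim (0.12), Lgals3 (0.16), Fn1 (0.37) and S100a11 (0.27) were all positive and not called between 3000 and 10000 UMIs, while Lyz2 was still lower there (−0.55, adjusted p = 5.79e-05). With the epithelial or stromal barcodes left out, S100a11 was at −0.25 (adjusted p = 0.451) and 16 of the list were tested, of which S100a10, Fn1, Lyz2, Vim and Lgals3 were lower and Ccr2, Plac8 and Ifitm3 higher.

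The 9 MHC class II genes tested did not pass between the classes (median 0.16, 0 called). With the epithelial or stromal barcodes left out, H2-Aa, H2-Ab1, H2-Eb1, Cd74 and Ciita were higher in the cells without the transcripts and the median was 0.36. Il1b and Cd86 were not called at first (edgeR, 0.28 ± 0.18, adjusted p = 0.535, and 0.06 ± 0.08, adjusted p = 0.843). They were higher without those barcodes by 0.46 (adjusted p = 0.0210) and 0.26 (adjusted p = 0.0269). Some genes lower in these cells moved upward too, such as Nlrp3 (−0.67 to −0.46), Apoe (−0.785 to −0.58) and Mrc1 (−0.52 to −0.38). Ctsd (−1.83 to −2.17) and Lgals3 (−0.67 to −0.74) moved downward. Whether leaving out the UMIs of those barcodes shifted many genes by a common amount was not tested. Of 36 interferon-stimulated genes 1 was higher and 0 lower at first, and 4 were higher (Ifit2, Ifit3, Ifi27l2a and Phf11b) and 0 lower without those barcodes. Of 31 immediate early genes 1 was higher and 0 lower at first, and 2 were higher (Hspa1b and Hsph1) and 1 lower (Nr4a2) without them.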

How the data were processed

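For each of the 6 libraries the authors deposited a matrix of raw UMI counts (genes by barcodes), without normalization, from the barcodes that Cell Ranger called as cells. The submitters' processing notes name Cell Ranger 9.0.0, Seurat 4.0.0, R 4.0.3 and GRCm39, the file headers name an earlier Cell Ranger release, and the annotation release was not given in the sources used here. Files hold 93172739 to 137819127 UMIs each. Free RNA was not removed and no doublet caller was applied to the cells described.

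Barcodes were chosen by the stated rule, and the members and gene lists were chosen with earlier results of these data known. UMIs were summed per mouse (and class), filtered with filterByExpr, scaled with TMM and tested with edgeR 4.0.16 in R 4.3.3 (quasi-likelihood F test), and p-values were adjusted by Benjamini-Hochberg across every gene tested. Genes used in the rule, mitochondrial genes among them, entered the fits and the adjustment (5734 genes between groups and 8767 between classes). They were taken out afterwards, which left the 5711 and 8742 genes counted above. The standard error is the log2 change over the square root of F. CPM are not TMM-scaled. The mouse, not the cell, is the replicate. Replicate numbers only name the mice, so no block was used between groups. Same-number deviations correlated at −0.102, −0.206 and −0.0252, and different-number deviations at −0.0539 to 0.147. These correlations cannot show whether mice shared a batch. Thinned shares average, over cells, the probability of keeping a UMI of the gene when 1000 UMIs are drawn, and were compared with exact permutation tests (scipy 1.17.1). Tubule cells held at least 3 of the 4 tubule genes and at most 1 macrophage gene, 3772 to 5412 per mouse.

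Named genes were the 12 largest rises and falls among called genes whose mean reached 20 CPM and whose groups did not overlap (10 each way between classes), up to 4 called genes per list, and the macrophage genes the study names. Other genes beside a list's count, and those called only without epithelial or stromal barcodes, were named after their values were seen. One gene the rule chose is not reported here. Gene positions are from GENCODE vM39. Tested on simulated data with 200 changed genes among 5734, the test between groups recovered 66.5% (86% of 4-fold and 47% of 2-fold changes), with 8 false among 141 calls. Among 8767 genes, the test between classes recovered 76.5%, with 12 false among 165. The simulated counts were drawn gene by gene with a dispersion set by abundance alone. Single barcodes holding most of a gene's UMIs were not simulated, so these rates need not hold for the real data.

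Alternatives were DESeq2 1.42.0, its size factors, no filter, at most 20% mitochondrial UMIs, Scrublet (scanpy 1.11.5), at least 2000 UMIs, 3000 to 10000 UMIs, thinning, at least 5 macrophage genes, 0 tubule UMIs, both macrophage classes together, a replicate block, each mouse left out and, added after seeing the data, no barcodes with epithelial or stromal genes. Thinning here, unlike that of the shares, drew each summed count down to the smallest sum and did not equalize the depth of single cells.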

Additional observations from a re-analysis of the deposited data

How the results depend on the processing

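Between the groups, 22 genes higher and 29 lower became 26 and 45 with DESeq2, 236 and 88 without the filter on low counts, 19 and 56 with Scrublet, 65 and 68 between 3000 and 10000 UMIs, 10 and 20 with thinning, 47 and 62 without barcodes with epithelial or stromal genes, and 120 and 112 when both macrophage classes were summed. When both classes were summed, 14 of the 22 higher genes and all 29 lower genes were still called in the same direction. With 0 tubule UMIs required, 6 to 47 cells per mouse and 1128 genes were left and 0 passed in either direction. Leaving out each mouse gave 0 to 52 higher and 1 to 54 lower. With the replicate number as a block, which the labels do not tie to any pairing, 7 and 12 of the same genes were called. No called gene was called the other way under any of these settings.

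Between the classes, 241 higher and 165 lower became 76 and 51 with DESeq2, 455 and 386 without the filter, 154 and 107 at 20% mitochondrial UMIs, 131 and 116 with Scrublet, 28 and 70 between 3000 and 10000 UMIs, 114 and 92 with thinning, 113 and 122 with at least 5 macrophage genes, and 116 and 176 without barcodes with epithelial or stromal genes. The lower calls thus outnumbered the higher ones between 3000 and 10000 UMIs, with at least 5 macrophage genes and without those barcodes. With no replicate block, that is without the mouse as a term, 89 and 34 were called. Leaving out each mouse gave 109 to 252 higher and 64 to 183 lower.

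Among the named genes, signs changed only in those that were not called, apart from Hbegf, Calb1, Vim, Lgals3, Fn1 and S100a11. Between the groups these were Casp1 (0.00742 with thinning, −0.288 to 0.00556 with each mouse left out), Nlrp3 (0.0452 with both classes summed), P2ry6 (−0.0399) and Il1b (0.173) with 0 tubule UMIs, and Gsdmd (−0.789 to 0.134 with each mouse left out). The share of cells with Casp1 differed by 0.582 percentage points without thinning. Between the classes they were Casp1 (0.00949 at 20% mitochondrial UMIs, 0.0407 with Scrublet, 0.00547 at 2000 UMIs, 0.0507 between 3000 and 10000 UMIs, 0.00564 with 5 macrophage genes, 0.161 without epithelial or stromal barcodes and −0.110 to 0.10 with each mouse left out), P2ry6 (0.0185 with 5 macrophage genes, 0.0970 without epithelial or stromal barcodes and −0.169 to 0.0246 with each mouse left out), Cd86 (−0.00122 without the filter), Il1b (−0.0761 to 0.630 with each mouse left out), Hbegf (−0.269) and S100a11 (−0.254) without epithelial or stromal barcodes, Vim (0.119), Lgals3 (0.161) and Fn1 (0.371) between 3000 and 10000 UMIs, and Calb1 (−0.112 between 3000 and 10000 UMIs and −0.136 without epithelial or stromal barcodes). The cause of these shifts was not tested.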
